A study of Mus musculus with 13 samples.

Results

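STAT3 knockout (KO) B cells restimulated with IL-21 or with IL-4 gave 4 anti-STAT3 CUT&RUN libraries, out of 12 antibody libraries and 13 samples in the series. The members are the 4 deposited peak lists labelled as STAT3 KO: IL-21 IgM+, IL-21 IgG1+, IL-4 IgM+ and IL-4 IgG1+, with 1 library each. In CUT&RUN an antibody tethers a nuclease to chromatin inside permeabilised cells, and the DNA that it releases is sequenced. Per the labels, splenic mouse B cells, both KO and wild-type (WT), had been kept for 96 h in anti-CD40 (1 µg/mL) plus IL-4 (12.5 ng/mL). IgM+ and IgG1+ cells were then sorted, and 400000 of them received anti-CD40 for 1 h, with the second agent being IL-21 at 10 ng/mL in one arm and IL-4 at 12.5 ng/mL in the other. Every cell had therefore met IL-4 before the final hour, the IL-21 groups included. For comparison, 8 WT libraries came from the same design, 2 for each treatment and isotype. How Stat3 was deleted, in which cells, the age of the mice, and whether libraries came from separate animals cannot be read from the labels. A peak list holds no RNA or protein, so the loss of STAT3 and the B cell identity rest on the labels alone.

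IL-21 and IL-4 are T cell cytokines whose receptors share the common gamma chain. IL-21 acts on B cells chiefly through STAT3, while IL-4 acts chiefly through STAT6. Activated STAT dimers bind palindromes known as GAS elements, with a short spacer between TTC and GAA, the spacer being longer in the form that STAT6 prefers. Without STAT3 an anti-STAT3 antibody has lost its intended target, so peaks in KO libraries describe what the assay returns in its absence. The study's question in these cells, as far as its design text goes, was which STAT3 sites follow IL-21. The KO libraries are the place to look for anything that follows the cytokine without STAT3.

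The promoters that carry the pattern are shown first. They are the 3 promoters whose window held the summit of a region found in all 4 KO libraries (Prdx3, Rell1 and Abcb9), the only such promoter among regions found in both IL-21 KO libraries and neither IL-4 KO library (Eif3j1), and the 3 with the highest mean fold enrichment among the reverse pattern (Gtdc1, Serinc5 and Orai1). Each window runs from 250 bases before to 50 bases after a RefSeq transcription start on GRCm38.p6, the assembly also called mm10, and is written 5′ to 3′ along the gene's strand. Capitals mark every match, on either strand, to 8 motifs: the GAS palindrome TTCNNNGAA, its STAT6 form with a 4-base spacer, and the core letters of common promoter factors, namely CGGAAG (ETS), GGGCGG (Sp/KLF), CCAAT (NF-Y), TGACGTCA (CRE), CATGCGC (NRF1) and ATGGCGG (YY1). Overlapping matches run together in the capitals, and an ETS match can lie inside a STAT6-form match.
Prdx3: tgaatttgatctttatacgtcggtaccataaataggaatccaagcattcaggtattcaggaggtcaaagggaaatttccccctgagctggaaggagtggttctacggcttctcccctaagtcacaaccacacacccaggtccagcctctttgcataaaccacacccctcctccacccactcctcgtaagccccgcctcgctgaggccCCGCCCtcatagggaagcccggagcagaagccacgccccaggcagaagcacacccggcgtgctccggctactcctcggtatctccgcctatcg
Rell1: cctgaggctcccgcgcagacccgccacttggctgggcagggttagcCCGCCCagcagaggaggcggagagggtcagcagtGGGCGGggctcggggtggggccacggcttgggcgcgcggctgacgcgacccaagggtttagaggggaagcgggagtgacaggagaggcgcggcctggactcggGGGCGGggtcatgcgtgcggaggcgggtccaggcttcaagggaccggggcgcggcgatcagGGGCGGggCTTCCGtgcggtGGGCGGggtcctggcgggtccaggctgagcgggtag
Abcb9: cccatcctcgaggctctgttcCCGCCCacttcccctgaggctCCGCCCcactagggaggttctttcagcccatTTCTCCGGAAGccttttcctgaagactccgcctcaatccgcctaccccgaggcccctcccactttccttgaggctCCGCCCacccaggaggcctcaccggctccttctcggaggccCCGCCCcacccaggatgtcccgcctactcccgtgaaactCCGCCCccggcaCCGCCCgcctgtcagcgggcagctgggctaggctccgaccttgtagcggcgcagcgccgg
Eif3j1: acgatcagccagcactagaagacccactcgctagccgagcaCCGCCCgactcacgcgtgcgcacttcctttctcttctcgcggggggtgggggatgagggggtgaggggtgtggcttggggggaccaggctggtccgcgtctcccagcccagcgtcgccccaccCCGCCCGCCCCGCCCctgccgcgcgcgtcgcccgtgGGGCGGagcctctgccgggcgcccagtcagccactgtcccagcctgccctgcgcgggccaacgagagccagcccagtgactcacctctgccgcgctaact
Gtdc1: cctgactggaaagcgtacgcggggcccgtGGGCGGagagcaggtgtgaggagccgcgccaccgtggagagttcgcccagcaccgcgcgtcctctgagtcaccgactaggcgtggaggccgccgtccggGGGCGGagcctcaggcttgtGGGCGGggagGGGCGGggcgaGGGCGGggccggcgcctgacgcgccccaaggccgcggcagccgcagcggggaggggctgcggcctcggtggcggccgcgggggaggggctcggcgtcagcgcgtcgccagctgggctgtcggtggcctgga
Serinc5: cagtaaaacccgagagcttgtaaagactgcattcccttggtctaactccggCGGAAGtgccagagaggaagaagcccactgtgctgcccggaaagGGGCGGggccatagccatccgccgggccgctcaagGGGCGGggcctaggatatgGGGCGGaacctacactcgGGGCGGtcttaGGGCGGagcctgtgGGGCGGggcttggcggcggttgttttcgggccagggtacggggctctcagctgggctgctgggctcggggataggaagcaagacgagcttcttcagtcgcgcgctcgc
Orai1: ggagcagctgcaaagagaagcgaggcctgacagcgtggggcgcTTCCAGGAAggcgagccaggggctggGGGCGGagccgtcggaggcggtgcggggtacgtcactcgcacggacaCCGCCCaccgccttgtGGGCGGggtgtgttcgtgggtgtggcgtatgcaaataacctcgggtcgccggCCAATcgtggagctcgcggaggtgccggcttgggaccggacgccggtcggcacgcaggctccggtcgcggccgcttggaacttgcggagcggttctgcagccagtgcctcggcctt
The windows are chr19:60874489-60874788 (minus strand) for Prdx3, chr5:63968848-63969147 (minus) for Rell1, chr5:124095749-124096048 (minus) for Abcb9, chr2:122028330-122028629 (plus) for Eif3j1, chr2:44927187-44927486 (minus) for Gtdc1, chr13:92610888-92611187 (plus) for Serinc5 and chr5:123014824-123015123 (plus) for Orai1. All 7 hold the letters GGGCGG. The GAS letters appear in the Orai1 window alone, and the STAT6-form letters appear in the Abcb9 window alone. For contrast, the window below is the promoter with the GAS letters that had the highest mean fold in WT IL-21 libraries among regions found in all 4 of these and in no KO library. It belongs to Thg1l, a tRNA guanylyltransferase gene, at chr11:45955139-45955438 (minus strand), and only its GAS is in capitals.
Thg1l: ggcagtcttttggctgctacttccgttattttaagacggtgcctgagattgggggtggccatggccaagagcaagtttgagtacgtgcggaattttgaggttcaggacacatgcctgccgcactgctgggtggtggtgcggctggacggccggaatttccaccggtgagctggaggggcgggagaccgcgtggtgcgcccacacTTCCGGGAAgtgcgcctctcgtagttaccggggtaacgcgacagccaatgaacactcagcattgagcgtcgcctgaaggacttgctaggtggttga
The 4 WT IL-21 libraries gave folds of 60.1 to 117 at Thg1l, and all 4 WT IL-4 libraries also had a peak there. No KO library had a peak within 20000 bp of Thg1l.

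The 4 KO lists held 1073 peaks (IL-21 IgM+), 648 (IL-21 IgG1+), 763 (IL-4 IgM+) and 1892 (IL-4 IgG1+) on chromosomes 1 to 19, X and Y. List length did not order by cytokine: IL-21 had the longer list in IgM+ cells and the shorter list in IgG1+ cells. The mean log2 number of peaks was 9.7 for IL-21 and 10.2 for IL-4 (two-sided exact permutation test within isotype, p = 1.0, 4 arrangements, smallest possible p 0.5). WT lists ran from 623 to 2034 peaks. Fold enrichment is the authors' ratio of the fragment pileup at a summit to its local background, after 1 is added to each. Its median lay between 4.3 and 4.51 in KO lists. The fold and p of a peak together give a whole number of fragments, and the weakest KO peaks rested on pileups of 10 or 11 fragments over backgrounds down to 2.02. Depth in reads is not recorded in the lists, so a missing peak means only that none was called.

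Little recurred between KO libraries. Overlapping peaks of the 4 lists were joined into 4122 regions, of which 3968 (96.3%) had a peak in 1 library alone. Peaks were shared by 2 libraries at 89 regions, by 3 at 33 and by all 4 at 32, so that 154 regions (3.74%) recurred. By library, 83.5% of regions (IL-4 IgM+) to 94.3% (IL-4 IgG1+) were found nowhere else among the KO libraries. The WT lists, taken 1 library a group in each of the 16 possible ways, gave 211 to 603 recurring regions, above the 154 of KO cells, but a like number in all 4 libraries (26 to 38, against 32 in KO).

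**Figure D1:**
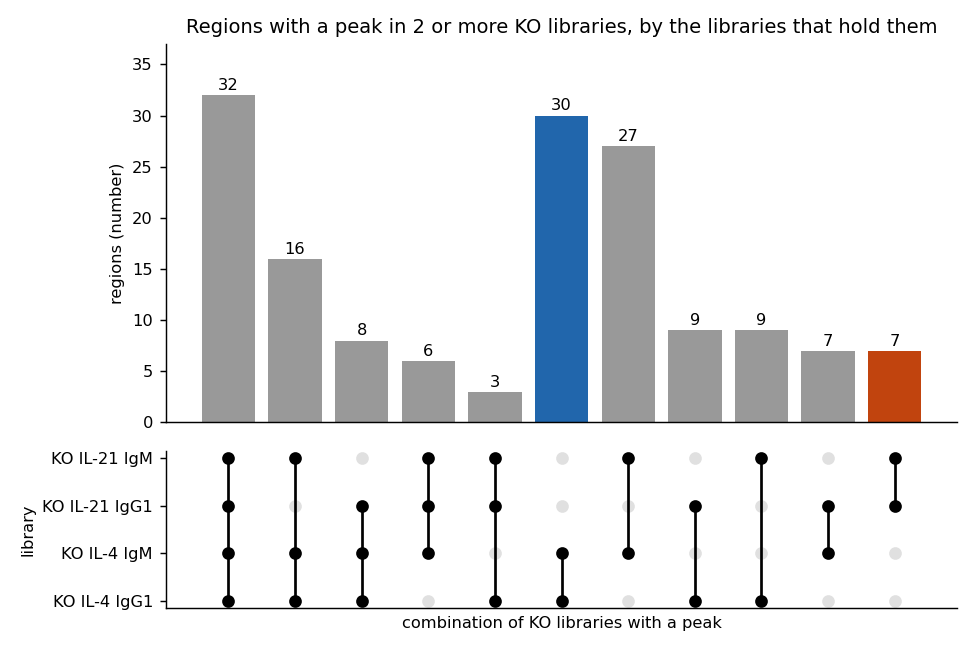
Bars count KO regions with a peak in 2 or more KO libraries, split by the exact combination of libraries, which the joined dots below name. The rust-red bar (7 regions) holds both IL-21 libraries alone and the blue bar (30 regions) both IL-4 libraries alone, beside 32 regions in all 4 libraries.

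Few regions followed the cytokine by the presence of a peak. Both IL-21 KO libraries and neither IL-4 KO library had a peak at 7 of the 4122 regions (0.17%), and the reverse held at 30 (0.728%). Regions that followed the isotype were as common: 27 had a peak in both IgM+ libraries alone and 9 in both IgG1+ libraries alone. Pairs of libraries that share neither cytokine nor isotype held 9 and 7 regions of their own, so the 7 regions of the IL-21 pair equal the lowest of the 6 pairs. With 2 libraries against 2, no region can pass a test, and these counts are a description.

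WT cells gave the opposite order. Over the 16 choices of 1 WT library a group, 119 to 442 regions (median 229.5) had a peak in both IL-21 libraries and neither IL-4 library, which is 3.15% to 10.2% of the regions. The IL-4 pattern had 0 to 9 regions (median 4) in WT. The KO count of 7 thus lay below every WT choice for IL-21, and the KO count of 30 above every WT choice for IL-4. The 2 IL-21 libraries shared 48 regions in KO, against 186 to 505 in WT, and the 2 IL-4 libraries shared 86 in KO, against 33 to 46 in WT.

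**Figure D2:**
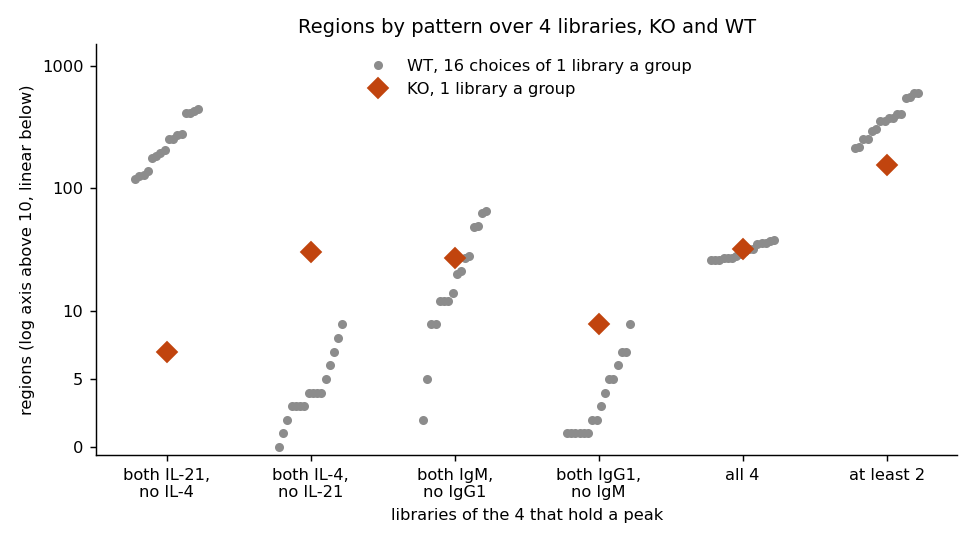
Grey points give the number of regions with each pattern for the 16 choices of 1 WT library a group, and rust-red diamonds the same count in the 4 KO libraries (vertical axis logarithmic above 10). For both IL-21 and no IL-4 the diamond sits at 7, below the lowest grey point of 119, and for both IL-4 and no IL-21 it sits at 30, above the highest of 9.

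The IL-4 IgM+ KO library had a part in both large pair counts. It shared 86 regions with the IL-4 IgG1+ library (11.3% of its own regions and 4.55% of the other's) and 81 with the IL-21 IgM+ library (10.6% and 7.55%). The 2 IL-21 libraries shared 48 (4.47% of the IgM+ list's regions and 7.43% of the IgG1+ list's). Without the IL-4 IgM+ library the number of recurring regions was 90 in place of 154. It also fell without each of the others, to 106 (IL-4 IgG1+), 110 (IL-21 IgM+) and 131 (IL-21 IgG1+). With the 648 top peaks of each list, so that all had equal length, the IL-21 pattern had 7 regions and the IL-4 pattern 21.

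The 7 regions of the IL-21 pattern fall into 2 kinds. At 3 of them the summit lay within 67 bp of a protein-coding gene's end. At Tvp23b, a Golgi membrane protein gene (chr11:62879272-62879566, 41 bp outside the gene), the folds were 4.28 in IgM+ and 5.31 in IgG1+ cells. At Pycrl, which encodes an enzyme of proline synthesis (chr15:75921403-75921673, inside the gene 67 bp from an end), they were 4.14 and 4.48. At Eif3j1, a gene for a subunit of the eIF3 translation initiation complex (chr2:122028354-122028610, 3 bp from the transcription start), they were 3.52 and 4. Tvp23b also had peaks in 3 WT libraries, of which 1 was an IL-4 library (fold 5.13), and Pycrl in 1 WT IL-4 library, whereas Eif3j1 had none in WT.

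The other 4 lay at low folds, and no WT peak overlapped them. Of these, 3 were on the sex chromosomes: chrY:90744475-90744755 (folds 3.16 and 2.91 in IgM+ and IgG1+ cells) inside the predicted gene Gm52481, chrY:90765468-90765855 (2.97 and 2.79), and chrX:169991190-169991637 (2.73 and 2.1), 544 bp outside Mid1. The tip of X was not confined to IL-21: the IL-4 IgM+ KO library had a peak nearby at chrX:169997048-169997329 with a higher fold (3.08), and a WT IL-21 IgM+ library had one at chrX:169978867-169979174 (3.92), neither of which overlaps the region. Mid1, a ubiquitin ligase gene, spans the boundary of the mouse pseudoautosomal region, the stretch at the tips of X and Y that both chromosomes share. Each IL-21 KO library had 4 peaks on Y and each IL-4 KO library 0, while WT cells had 1 Y peak in each of 3 libraries, of which 2 were IL-21 IgG1+ and 1 was IL-4 IgG1+. Every Y peak lay between positions 90741229 and 90841951, so that the difference between treatments concerns 1 stretch near the tip. The labels give neither the sex nor the strain of the mice, and the part of either in these peaks was not tested. The last of the 7 was on chromosome 18, 8625 bp from Gm45871, with folds of 1.69 and 1.86. Without X and Y the IL-21 pattern had 4 regions.

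The 30 regions of the IL-4 pattern lay mostly at promoters. The summit was within 1000 bp of a gene end at 19 of 30 (63.3%). It was within 250 bp of a transcription start at 18 of the 29 (62.1%) outside chromosome 18, where the RefSeq promoter table used here has no entries. Nearness to gene ends was not particular to this pattern. Over all regions in 2 KO libraries the shares were 59.6% and 48.8%, and in the IL-21 pattern the counts were 5 of 7 and 1 of 6. Folds ran from 1.57 to 8.47 with a median of 4.64. Among those with the highest mean fold, Gtdc1, a glycosyltransferase-like gene (chr2:44927196-44927526), had folds of 8.09 in IgM+ and 6.29 in IgG1+ cells. Serinc5, which encodes a membrane protein known for restricting retroviruses (chr13:92610374-92611281), had 7.72 and 6.37. Orai1, the pore of the store-operated calcium channel that lymphocytes use on antigen receptor signalling (chr5:123014824-123015093), had 6.17 and 6.92.

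The next regions in that order touched genes of varied function. Anxa5, a phospholipid-binding annexin, had 5.47 and 6.76, and Limk2, a kinase of the actin regulator cofilin, had 6.44 and 5.63. Adh5, a formaldehyde-clearing dehydrogenase, had 7.4 and 4.63. Ola1, an ATPase of the Obg family, had 7.59 and 3.75. Gmds, the first enzyme of GDP-fucose synthesis, had 6.78 and 4.2. The pyruvate dehydrogenase kinase Pdk1 had 4.61 and 5.96, the ubiquitin ligase subunit Fbxl17 had 4.51 and 5.96, and the translocon subunit Sec61a2 had 5.12 and 5.29. None of these named genes is a gene of the JAK-STAT, plasma cell, germinal centre or IL-4 response lists used here.

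Regions of the IL-4 pattern were not restricted to IL-4 libraries in WT cells. Of the 30 regions, 24 had a WT peak: 18 in at least 1 WT IL-4 library and 15 in at least 1 WT IL-21 library. At Orai1 the WT folds were 9.98, 5.74 and 4.32 in 3 IL-21 libraries and 5.76 in 1 IL-4 library. At Gtdc1 they were 6.78, 5.15 and 7.94 in 3 IL-21 libraries and 5.72 in 1 IL-4 library. The first WT IL-4 IgM+ library alone held a peak at 16 of the 30, against 1 to 4 in the other 3 WT IL-4 libraries and 1 to 11 in the WT IL-21 libraries. Over 50000 bp from any coding gene lay 4 regions of the IL-4 pattern, with folds of 1.57 to 2.67 and −log10 p values of 41 to 9450. Without these 4 the pattern had 26 regions.

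The 32 regions in all 4 KO libraries were of 3 kinds. At 19 of them all 8 WT libraries had a peak as well. These carried low folds (1.47 to 6.34, median 1.95) with very high −log10 p (9.95 to 90100, median 258), which is what a small ratio over a very large background gives. As many as 12 of the 19 lay at the start of chromosome 9, between positions 3000945 and 3038250, with folds of 1.47 to 3.53. None was within 1000 bp of a gene end, and 17 were over 50000 bp from a coding gene. The start of chromosome 9, next to the centromere, and the stretch near chr2:98666614-98667287 are known in this genome build for high signal in sequencing assays of many kinds. 

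The height of these 19 regions, which were picked for a peak in every library, separated the KO libraries by cytokine. At chr2:98666614-98667287 the fold was 1.9 and 1.98 with IL-21 (IgM+ and IgG1+) and 2.06 and 2.23 with IL-4. Both IL-4 folds were above both IL-21 folds at 17 of the 19, all 12 on chromosome 9 among them, and the reverse held at 0. Over all 32 regions the IL-4 folds were the higher at 22 (68.8%) and the IL-21 folds at 3 (9.38%), so outside the 19 the counts were 5 and 3 of 13. The step was small: the median fold over the 19 was 1.78 and 1.79 in the IL-21 libraries and 1.99 and 2 in the IL-4 libraries, a mean log2 difference of −0.16 (two-sided exact permutation test within isotype, p = 0.5, the smallest that 4 arrangements allow). In WT cells the medians were 1.6 to 1.75 with IL-21 and 1.62 to 2.97 with IL-4, and these ranges overlapped. Neighbouring regions of a stretch share their signal in a library, so the 19 are not separate measurements. This order was looked at after the values were seen, and what underlies it was not tested.

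The second kind were 4 regions at gene ends, of which 3 were printed above. At Prdx3, a mitochondrial peroxiredoxin (chr19:60874320-60874700, summit 10 bp from the start), the folds were 6.18 and 7.8 with IL-21 (IgM+ and IgG1+) and 6.44 and 6.9 with IL-4. At Sh3bp4, an endocytic adaptor gene (chr1:89069990-89070472, 278 bp outside the gene), they were 5.56 and 4.8 with IL-21 and 7.72 and 6 with IL-4. At Rell1, a relative of a TNF receptor family member (chr5:63968822-63969138), they were 4.43 and 4.3, then 5.93 and 4.4. At Abcb9, a lysosomal peptide transporter (chr5:124095737-124096214), they were 3.96 and 4.24, then 4.21 and 4.39. IL-21 and IL-4 values overlapped at Prdx3, Rell1 and Abcb9, while both IL-4 values at Sh3bp4 were above both IL-21 values. These 4 regions were picked for a peak in every KO library, so a lower count in WT cells follows from the choice. WT peaks were found in 3 of 8 libraries at Prdx3 (folds 3.47 to 5.28) and Abcb9 (3.38 to 4.63), and in 1 of 8 at Sh3bp4 (5.08) and Rell1 (3.41). The first WT IL-4 IgM+ library was among them at all 4 genes. The rest of the 32 were 6 low-fold regions elsewhere (folds 1.4 to 3.22) and the 3 regions of the next paragraph.

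**Figure D3:**
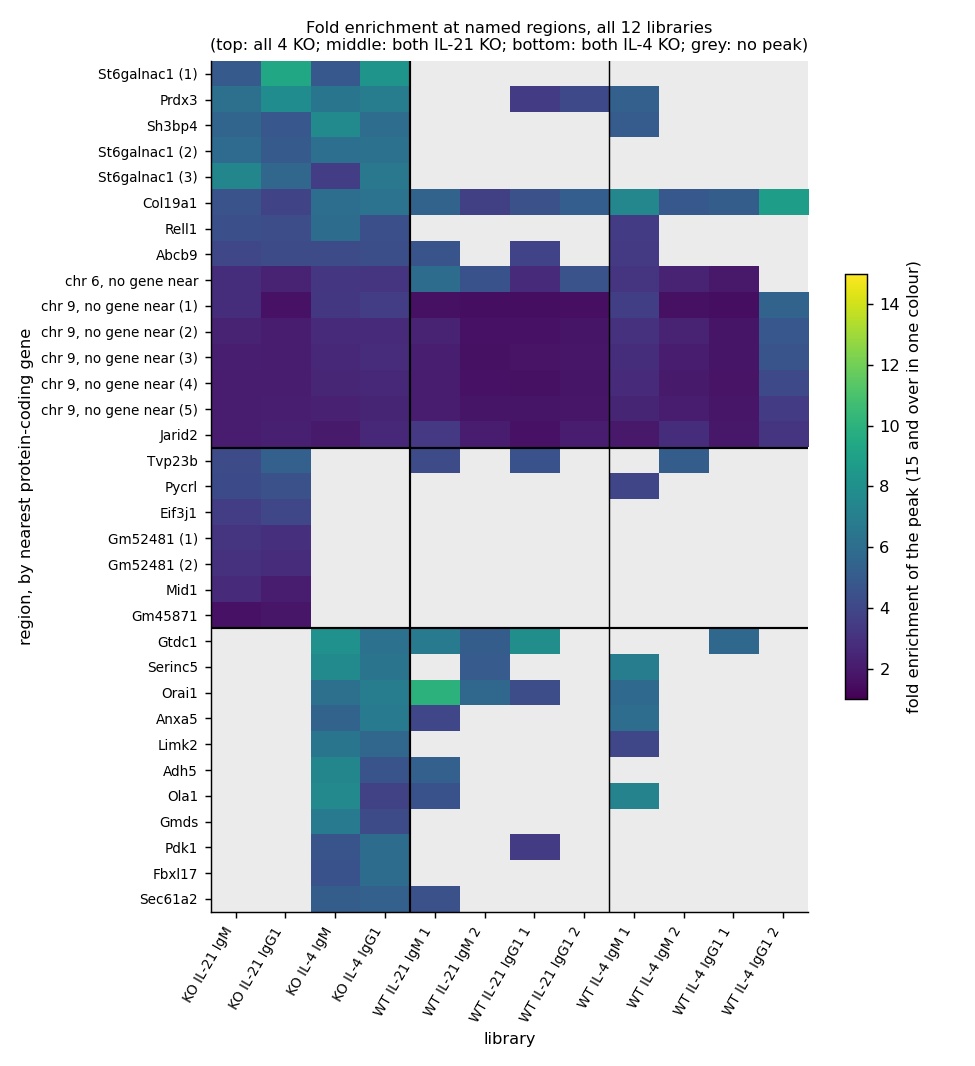
Each row is a region named by its nearest protein-coding gene and each column a library. Colour gives the authors' fold enrichment and grey means that no peak was called. The top block shows the 15 regions of highest mean fold in all 4 KO libraries, the middle block the 7 regions of the IL-21 pattern and the lower block regions of the IL-4 pattern with high mean fold. Orai1 and Gtdc1, in the lower block, carry peaks in 3 WT IL-21 libraries each.

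One stretch of chromosome 11 carried peaks in every KO library and in no WT library. It ran over 35029 bp (chr11:116740219-116775247) across the predicted RNA gene Gm11735, the long non-coding RNA gene BC018473 and St6galnac1, a sialyltransferase gene that makes the sialyl-Tn structure on O-linked glycans. The KO lists had 43 peaks in it: 9 (IL-21 IgM+), 13 (IL-21 IgG1+), 7 (IL-4 IgM+) and 14 (IL-4 IgG1+). The 8 WT lists had 0. The 43 peaks formed 18 regions, of which 3 were in all 4 KO libraries, 4 in 3, 6 in 2 and 5 in 1, so that 13 recurred. The stretch was picked out after its values were seen, and it has no test.

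Folds in this stretch were at or above those of the lists. The median fold of its peaks was 6.07 (IL-21 IgM+), 5.64 (IL-21 IgG1+), 4.83 (IL-4 IgM+) and 5.66 (IL-4 IgG1+), against list medians of 4.41, 4.37, 4.51 and 4.3. The region with the highest mean fold of all 32, at chr11:116765328-116767010 inside St6galnac1 and 1091 bp from its end, had folds of 4.96 and 9.36 with IL-21 and 4.83 and 8.27 with IL-4. Both IgG1+ values there were above both IgM+ values, and the cytokines overlapped. The second, at chr11:116752462-116754356 over BC018473, had 5.87 and 4.99 with IL-21 and 6.12 and 6.29 with IL-4. The last of them, at chr11:116755394-116756387, had 7.41 and 5.62, then 3.54 and 6.62. The fold of 9.36 was the highest of any peak in the IL-21 IgG1+ list.

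Peaks in this stretch were spread and not stacked on a common summit. They covered 18.5% of it (IL-21 IgM+), 16.1% (IL-21 IgG1+), 11.5% (IL-4 IgM+) and 17.7% (IL-4 IgG1+). The median distance between the summits of different libraries in its recurring regions was 323 bp, against 73 bp in the recurring regions elsewhere. Its recurring regions were also wider (median 783 bp, against 365 bp elsewhere), and a wider region allows a larger distance between summits. The nearest peak of any library outside the stretch was 115793 bp before it and 70559 bp after it. The Stat3 gene lies 15800625 bp away on the same chromosome. Windows of 50 kb with 5 or more KO peaks in a library occurred at this stretch and at the start of chromosome 9 only, and the latter was as dense in WT. What underlies the peaks in this stretch was not tested. Without the stretch, 141 regions recurred in KO cells and 29 were in all 4 libraries.

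**Figure D4:**
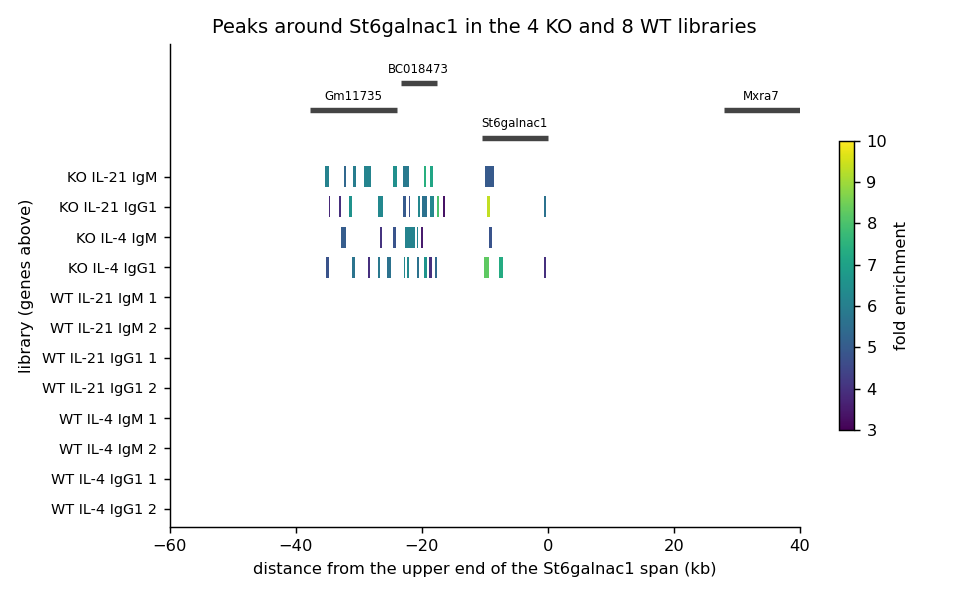
Peaks of the 12 libraries are drawn to scale against distance from the upper end of the St6galnac1 span (kb), with gene spans above and fold enrichment as colour. The 4 KO rows hold 9, 13, 7 and 14 peaks and the 8 WT rows hold none.

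Outside this stretch only 5 regions were found in 3 or more KO libraries and in no WT library, and all 5 were at gene ends. At Mysm1, a histone H2A deubiquitinase, the folds were 6.18 (IL-21 IgM+), 5.47 (IL-4 IgM+) and 5.63 (IL-4 IgG1+). At Ccndbp1, a cyclin D1-binding protein, they were 7.18 (IL-21 IgG1+), 4.28 (IL-4 IgM+) and 4.65 (IL-4 IgG1+). At the ribosomal protein gene Rpl31 they were 4.44, 6.07 and 4.21 in those same libraries. Ccsap, a centriole protein gene (4.28, 4.03 and 4.5), and Pex10, a peroxisome biogenesis gene (2.93, 3.57 and 3.62), had peaks in both IL-21 libraries and in IL-4 IgM+. These 5 were picked by their pattern. A region in 3 or more KO libraries includes both cytokines by construction, so its presence cannot follow one of them.

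Where a KO region lay changed with how often it recurred. Of regions in 1 library, 14.9% (95% exact binomial interval 13.8% to 16.1%) had a summit within 1000 bp of a protein-coding gene end. The share was 59.6% (48.6% to 69.8%) for regions in 2 libraries and 66.7% (48.2% to 82%) for regions in 3. It was 12.5% (3.51% to 29%) in all 4 libraries, where the high-signal stretches and the chromosome 11 stretch made up most regions. A WT peak was present at 6.38% of regions in 1 KO library, 56.2% in 2, 72.7% in 3 and 90.6% in 4. These intervals cover counting error over regions only, and regions are not replicates.

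The recurring promoters were rich in G, C and CpG. The summit fell in a promoter window at 62 of the 154 recurring regions, which gave 70 windows. Their median GC content was 68.3% with 27 CpG sites, against 52.7% and 7 over all 32851 windows of the table. Promoters with a peak in 1 KO library were close to this (65.2% and 26). The letters GGGCGG stood in 95.7% of the 70 windows, in 81.6% of the 310 windows with a peak in 1 KO library and in 35.7% of all windows. The letters CGGAAG stood in 38.6%, 40% and 16.9%. A window so rich in G and C holds GGGCGG more readily, and the part of composition was not tested.

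GAS letters were few in the recurring KO promoters. TTCNNNGAA stood in 2 of the 70 recurring windows (2.86%), at Orai1 and Bclaf1, in none of the 28 windows of regions in 3 or more KO libraries, and in 8.3% of all windows. In the 310 windows with a peak in 1 KO library the share was 6.45%, nearer to that of all windows. The recurring windows are richer in G and C than all windows, and the part of composition in these shares was not tested. It stood in 16 of the 25 windows (64%) at the summits of regions found in all 4 WT IL-21 libraries and in no KO library, the group of Thg1l above. The STAT6 form, with its 4-base spacer, stood in 5.71% of the recurring windows, 6.95% of all windows, 3 of the 28 windows (10.7%) of regions in 3 or more KO libraries, and 0 of the 20 windows of the IL-4 pattern. A match to letters is a description of the sequence and not a bound site. Most KO regions lie outside promoter windows, and their sequence was not read.

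By library, nearness to gene ends followed neither cytokine. Peaks near a gene end made up 16.7% of the list (IL-21 IgM+), 16.5% (IL-21 IgG1+), 35.4% (IL-4 IgM+) and 11.8% (IL-4 IgG1+). The difference, IL-21 minus IL-4, was −18.7 percentage points in IgM+ cells and 4.67 points in IgG1+ cells (mean difference −7.02 points, two-sided exact permutation test within isotype, p = 1.0, smallest possible 0.5). In WT cells all 4 IL-21 libraries (25.1% to 31.5%) were above all 4 IL-4 libraries (8.35% to 19.9%). KO libraries averaged 20.1% and WT libraries 21.4%, a difference of −1.34 points (two-sided exact permutation test within treatment and isotype over 12 libraries, p = 0.802, 81 arrangements, smallest possible 0.0123). Leaving out the IL-4 IgM+ library turned the difference between cytokines to +4.76 points, so its direction rests on that library.

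**Figure D5:**
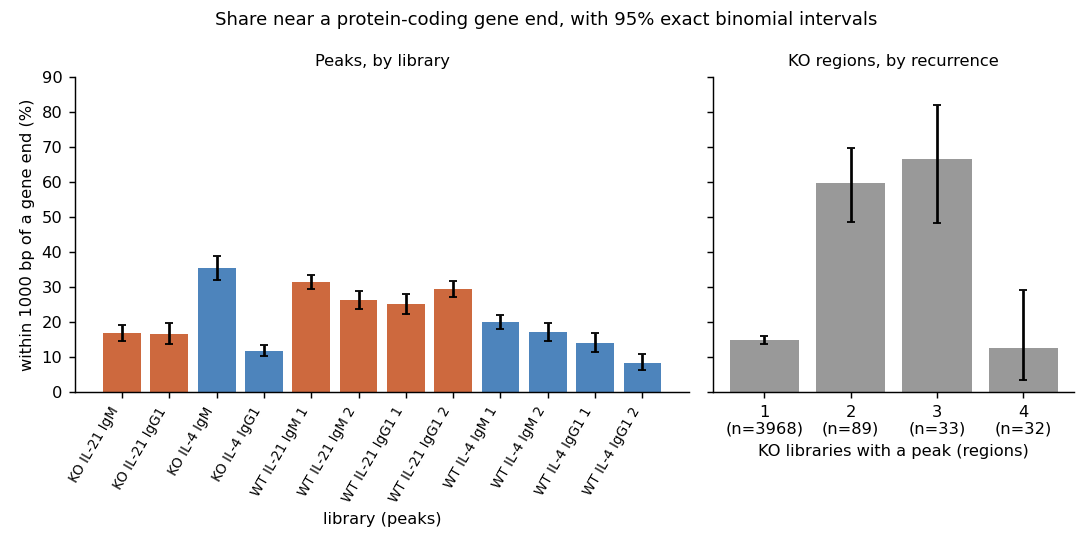
Left, the percentage of each library's peaks that lie within 1000 bp of a protein-coding gene end (rust-red, IL-21; blue, IL-4), with 95% exact binomial intervals; the IL-4 IgM+ KO library stands at 35.4% and the other 3 KO libraries at 11.8% to 16.7%. Right, the same share for KO regions by the number of KO libraries with a peak, which is 14.9% for 1 library and 66.7% for 3.

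The strongest KO peaks were weaker than those of WT cells with IL-21. The highest fold in a list was 10.8 (IL-21 IgM+), 9.36 (IL-21 IgG1+), 26.5 (IL-4 IgM+) and 9.93 (IL-4 IgG1+), against 60.1 to 117 in WT IL-21 and 11 to 19.2 in WT IL-4 libraries. The value of 26.5 belonged to a peak inside Deptor, an inhibitor of mTOR (chr15:55160631-55160893, 48436 bp from the nearest gene end), that no other KO or WT library had. The next 2 of that library were 31 bp from Aff1 (9.84), a gene of the super elongation complex that was found in no other library, and at Napepld (9.73), an enzyme of N-acylethanolamine synthesis that the IL-21 IgM+ list shared at 4.6.

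The strongest peaks of the other lists were mostly at gene ends and not particular to a cytokine by their presence. In IL-21 IgM+ cells they were Avl9, a secretory pathway gene (10.8), the histone deubiquitinase Usp3 (8.58) and Rwdd3 (8.34), a gene known for promoting SUMO conjugation. Avl9 also had peaks in IL-21 IgG1+ (5.62), in IL-4 IgM+ (7.4) and in 5 WT libraries, and Usp3 in IL-4 IgM+. In IL-21 IgG1+ cells they were the St6galnac1 peak (9.36), the co-chaperone gene Sgtb (8.12), shared with both IL-4 KO libraries, and a second peak 6945 bp from St6galnac1 (8.04). In IL-4 IgG1+ cells they included a peak 22491 bp from the galactosyltransferase gene B4galt1 (8.94), found in no other KO library.

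Regions found with IL-21 alone in WT cells had KO peaks about as seldom as WT regions in general, and less often than other regions that recurred in WT. Of 98 regions found in all 4 WT IL-21 libraries and no WT IL-4 library, 1 had a peak in an IL-21 KO library and 5 had a peak in an IL-4 KO library. The 6 together are 6.12% of the 98, beside 4.73% of all 7461 WT regions with a peak in any KO library. Those 7461 include regions of a single WT library. The share was 52.2% for the 69 regions in all 4 WT IL-21 libraries and at least 1 WT IL-4 library. It was 75% for the 40 regions in at least 3 WT IL-4 libraries. Both of these sets include regions found in all 12 libraries. Of the 98, the 1 region with an IL-21 KO peak was at Cmtm6, a regulator of PD-L1 at the cell surface (fold 4.32 in IL-21 IgM+ KO, against 6.61 to 12.7 in WT IL-21). The 5 with an IL-4 KO peak were Dennd4b, a Rab exchange factor (5.07 and 4.44 in IL-4 IgM+ and IgG1+ KO, against 8.02 to 17.1), Galns (4.56) and Parp3 (3.76) in IL-4 IgM+ KO, and Eapp (7.26) and Cic (3.59) in IL-4 IgG1+ KO. At Dennd4b the KO folds were below all 4 WT IL-21 folds. At Eapp, where the peak lay 14765 bp from the gene, the KO fold was within the WT IL-21 range of 4.84 to 8.29.

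A few loci known as STAT3 targets, and Stat3 itself, were looked up by name. No KO library had a peak within 20000 bp of Socs3, the feedback inhibitor of STAT3 signalling, of Bcl6, the germinal centre repressor, or of Il10, where the 8 WT lists had 24, 4 and 5 peaks, all in IL-21 libraries. By another measure, a KO region lay nearest to 12.7% of all protein-coding genes, within 50000 bp, so having none is the common case there. The share of all genes with a KO peak within 20000 bp was not counted. At Lsm4, an RNA-binding Sm-like protein gene, the KO lists had 1 peak (IL-21 IgM+) and the WT lists 19. Around Stat3 itself the KO lists had 3 peaks, but none at the gene end where 6 WT libraries had a peak (folds 8.55 to 23.5 with IL-21, and 3.57 and 4.7 with IL-4). One lay inside Stat3 (chr11:100931723-100932049, fold 4.78, IL-4 IgM+) and the others nearer to Cavin1.

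Genes of the signalling pathway and of B cell fate were looked up by list. A region in any KO library lay nearest to 12.7% of 21887 protein-coding genes, within 50000 bp. For the JAK-STAT list (receptors, JAKs, STATs, SOCS inhibitors and phosphatases) this was 5 of 34 genes (14.7%), for plasma cell genes 2 of 16, for B cell identity and germinal centre genes 10 of 28 (35.7%), for survival and proliferation genes 7 of 30 (23.3%), for IL-4 and STAT6 responsive genes 2 of 14, for interferon response genes 1 of 11 and for housekeeping genes 0 of 12. The lists for B cell identity and for survival thus stood above the share over all genes, and no test was made of that. No gene of the lists was in the IL-21 or the IL-4 pattern, which hold 7 and 30 regions in all. Regions in 2 or more KO libraries were nearest to Ifnar1, a subunit of the type I interferon receptor, and Mef2b, a germinal centre transcription factor. The Ifnar1 region lay 20071 bp from the gene, in the promoter window of the RNA gene A930006K02Rik, with folds of 5.25 (IL-21 IgM+), 6.76 (IL-4 IgM+) and 7.61 (IL-4 IgG1+). Mef2b had 4.82 (IL-21 IgM+) and 5.88 (IL-4 IgM+), with no WT peak.

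All other regions at genes of these lists were in a single KO library each. Cish, a SOCS family inhibitor, had 4.41 in IL-21 IgM+ at 5435 bp, and Ccr7, a chemokine receptor gene, 7.11 in the same library. Id3, an inhibitor of E proteins, had 5.21 in IL-4 IgM+, and Cd79a, part of the B cell receptor, 5.3 in IL-4 IgG1+. Among marker lists, 2 of 6 B cell genes, 2 of 9 myeloid genes and 0 of 10 T and NK cell genes had a KO region. A peak near a marker is a position and does not measure a cell type.

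KO peaks overlapped WT IL-21 lists somewhat more often than WT IL-4 lists, whichever cytokine the KO cells had received. IL-21 IgM+ KO peaks overlapped peaks of a WT IL-21 list in 4.94% on average over the 4 lists and of a WT IL-4 list in 3.7%, and IL-21 IgG1+ KO peaks in 6.02% and 4.94%. IL-4 IgM+ KO peaks did so in 10% and 7.11%, and IL-4 IgG1+ KO peaks in 3.3% and 2.34%. The mean overlap was larger with WT IL-21 lists in all 4 KO libraries, and those 4 lists also held more peaks in all (5555, against 3582 in the WT IL-4 lists). The excess was 1.23 and 1.08 percentage points in IL-21 KO cells and 2.92 and 0.965 in IL-4 KO cells (difference −0.783, two-sided exact permutation test within isotype, p = 1.0, smallest possible 0.5). The excess was thus no larger in IL-21 KO cells than in IL-4 KO cells in IgM+ libraries, and larger by 0.116 points in IgG1+ libraries. The difference was −0.0803 points with the 623 top peaks of each of the 12 lists, and −0.35 points where overlap was replaced by summits within 200 bp.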

How the data were processed

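The members and gene lists were chosen with earlier results of these data known. Per the submitters' processing notes, Trimmomatic 0.39, Bowtie2 2.4.1, MACS2 2.2.7.1 and deepTools 3.5.1 were used with mm10, with settings that the sources used here do not state. Every deposited list gives, per peak, a summit, a score, a fold, and a −log10 p and −log10 q. The fold is a ratio of pileup to background after 1 is added to each, and the lowest −log10 p is 5. All of these are the authors' values, without SD. Replicates were not pooled: each library has its own deposited list. Peaks on chromosomes 1 to 19, X and Y were joined where they overlapped by 1 bp or more, and joining was tested on simulated data. Each region took the nearest of 21887 RefSeq protein-coding genes within 50000 bp. Named regions were those in all 4 KO libraries (15 of highest mean fold) and in each cytokine pattern (12 of highest mean fold), the 3 peaks of highest fold a list, list genes with a region in 2 KO libraries, and KO peaks at the 98 WT IL-21 regions. Some regions that this rule takes are not reported here. Promoter sequences were RefSeq's (GRCm38.p6). Tests were exact permutations over libraries, whose p-values reflect only how these libraries vary, possibly for technical reasons. Alternatives were other rules of joining, stricter thresholds, equal list lengths and leaving out each KO library. Exons and introns were not used here, nor was the input sample. Python 3.11.15, numpy 2.4.6, pandas 2.3.3, scipy 1.17.1 and matplotlib 3.10.9 were used.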

Additional observations from a re-analysis of the deposited data

Results flagged for a closer look

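The IL-4 IgM+ KO library stood far from the other 3 KO libraries in 3 of 11 measures compared, by the gap to its nearest neighbour relative to the range of the 4; chance alone sets apart about 1 in 20 such groups. Its highest fold was 26.5, against 9.36 to 10.8 in the others, from the Deptor peak alone. Its share of peaks with a fold of at least 5 was 30.7%, against 21.2% to 22.4%. Summits within 250 bp of a RefSeq transcription start made up 26.2% of its peaks, against 7.43% to 10.2%.

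The highest fold in a list differed by treatment in opposite directions in the 2 genotypes. In KO cells the difference, IL-21 minus IL-4, was −15.7 in IgM+ and −0.57 in IgG1+ cells (mean −8.13). The IgM+ value rests on the Deptor peak alone: the next peak of that IL-4 library (9.84, at Aff1) is below the 10.8 of the IL-21 library, which turns the direction. In WT cells every IL-21 library was higher than every IL-4 library of its isotype, by 40.9 to 106. The difference between genotypes was not tested.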

How the results depend on the processing

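Of 93 comparisons of a result with an alternative, 73 were counted as unchanged. For counts of regions this meant a value within a set factor of the main one. For differences it meant the same sign and, where a test was made, the same side of a threshold of 0.05, with no limit on size. No test between cytokines could cross that threshold, so there the sign alone decided. With peaks of a fold of at least 4, the IL-21 pattern had 3 regions, the IL-4 pattern 19, regions in at least 2 KO libraries numbered 87, in all 4 KO libraries 5, shared by both IL-21 libraries 14 and shared by both IL-4 libraries 41. Without the regions found in all 12 libraries, 13 were in all 4 KO libraries (an alternative chosen after seeing the data) and 29 were shared by both IL-21 libraries. Without X and Y, also chosen after seeing the data, the IL-21 pattern had 4. Leaving out 1 KO library in turn gave 10 to 980 regions for the IL-21 pattern and 38 to 1814 for the IL-4 pattern. The high values (582 and 980, and 667 and 1814) come from leaving out a library of the pattern's own cytokine, so that it rests on a single library by construction. Leaving out a library of the other cytokine gave 10 and 13, and 38 and 46, with 1 list fewer to be absent from. Regions in at least 2 KO libraries ranged from 90 (without IL-4 IgM+) to 131. The difference in log2 peak number ranged from −1.18 to 0.128 (the latter without IL-4 IgG1+), that in peaks near gene ends from −18.8 to 4.76 points (without IL-4 IgM+), KO against WT from −6.44 to 1.41 points (without IL-4 IgG1+) and that in overlap with WT from −1.76 to 0.193 points (without IL-4 IgM+). The directions of these 4 differences thus each rest on 1 library. Those between cytokines could not pass a threshold of 0.05. KO against WT could (smallest possible p 0.0123) and did not (two-sided exact permutation test within treatment and isotype, p = 0.802). No paired analysis was possible because each KO group has 1 library, so that replicate numbers pair nothing; the tests between cytokines kept IgM+ and IgG1+ as strata. The lists give no read depth, so a missing peak cannot be told from one that was too shallow to call.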
